A study of Danio rerio with 6 samples.

Results

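The extracellular matrix of the early heart is cut by families of proteases and shielded by their inhibitors, and 89 of the 29978 genes listed belonged to them by name. The members were taken as every gene whose symbol begins with mmp, adam, timp or htra followed by a digit, or with adamts, in upper or lower case. They comprised 23 matrix metalloproteinase (MMP) genes, 16 ADAM genes, 15 ADAMTS genes, 4 ADAMTS-like genes, 28 HTRA genes and 3 genes for tissue inhibitors of metalloproteinases (TIMP). RNA came from hearts dissected from zebrafish embryos at 48 hours post fertilization (hpf) or at 56 hpf and pooled, with 3 pools at each stage. Per the study's methods, all animals were treated with phenylthiourea (PTU) against pigment formation. No treatment that differed between these stages is named. The sample labels give the AB line and the study's methods give *Tg(myl7:EGFP)* embryos, in which the *myl7* promoter drives a fluorescent protein in heart muscle. Whole hearts were pooled, so muscle, endocardium, outer layers and any attached tissue were read together, and the 56 hpf pools are other embryos than the 48 hpf pools. All 9 myocardial markers and all 9 endocardial or endothelial markers found in the files, such as *myl7* and *cdh5*, had reads in every pool.

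MMPs are zinc-dependent enzymes that cut collagens, gelatins and other matrix proteins. ADAM proteases sit in the cell membrane and release the outer parts of other membrane proteins, among them growth factor precursors and Notch receptors. ADAMTS proteases are secreted and bind the matrix, where several of them cut versican and aggrecan, the large proteoglycans of cardiac jelly and cartilage, while ADAMTS-like proteins share their ancillary domains but lack the protease domain. HTRA proteins are serine proteases, and TIMPs bind and block MMPs and some ADAM and ADAMTS enzymes. In the endocardial cushions of vertebrate hearts, turnover of the hyaluronan- and versican-rich jelly accompanies the formation of the valves, which is the period that the comparison of 48 with 56 hpf covers.

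The value of a gene is a normalized count, the reads aligned to it at a single place, scaled by a factor that evens out the libraries. Values of a stage are given in the order of replicates 1, 2 and 3. Between 14369087 and 26942838 reads were counted per pool, and 3 reads, a floor under which a gene was taken as not detected, came to between 2.13 and 3.98 normalized counts and covers counting error only. Normalized counts were not corrected for gene length, so levels are compared between pools and not between genes. Of the heart lists, all 9 myocardial markers lay below 0 (median log2 fold change -0.68), as did 8 of 9 endocardial or endothelial markers (-0.44), and all 5 epicardial markers lay above 0 (0.91). None of these was called by limma, with 2 myocardial markers lower and 1 endothelial and 3 epicardial markers higher at an unadjusted p under 0.05. The likelihood ratio test called 1 myocardial marker lower and 1 endothelial and 2 epicardial markers higher, DESeq2 2 lower, 1 and 2 higher, and the quasi-likelihood test none. The summed myocardial markers were 370944, 786811 and 920477 at 48 hpf against 394566, 359208 and 350068 at 56 hpf, with replicate 1 at 48 hpf within the range of the 56 hpf pools. Of 20 skeletal muscle genes limma called 14 higher at 56 hpf (median log2 fold change 3.73), of 11 cartilage genes 5 (1.04) and of 13 epidermis genes 1 (1.09). Of 10 red blood cell genes 5 were called lower (-1.68). The likelihood ratio test called 15, 6 and 5 muscle, cartilage and epidermis genes higher, DESeq2 15, 6 and 8, and the quasi-likelihood test 11, 3 and 1. In that order of tests 7, 8 and 4 red blood cell genes were lower. The likelihood ratio test also called 1 cartilage gene lower. At an unadjusted p under 0.05 by limma, 15, 7 and 7 muscle, cartilage and epidermis genes were higher, and 1 cartilage and 8 red blood cell genes lower. Of all genes tested, limma called 0.87% higher and 0.211% lower, and the shares by the other tests are given with the members below. The liver and yolk list was spread within each stage, with summed normalized counts of 7826 to 54491 at 48 hpf and 5133 to 126068 at 56 hpf. In bulk RNA, fewer cells of a type and less RNA per cell cannot be told apart, and this holds for every difference given here.

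Between 48 and 56 hpf, 2 of the 61 members tested rose and none fell at an adjusted p under 0.05, where 1.08% of all genes tested were called (limma on log2(normalized count + 1) with the replicate number as a block, Benjamini-Hochberg adjustment over 20805 genes). Both were ADAMTS genes that carry the symbol *adamts15b*. By direction, 0.87% of all genes were called higher and 0.211% lower. The other 28 members did not pass the filter on low counts, and 20 members had 3 reads or fewer in every pool. At an unadjusted p under 0.05, 20 members were higher and 5 lower, against 11.2% and 7.31% of all genes. The members had a median log2 fold change of 0.40, against -0.01 over all genes tested, and 43 of the 61 lay above 0, against 49.5% of all genes. A gene read almost wholly at 1 stage passes the filter through that stage, so these counts describe the members tested and not the families. For 17 members the 3 pools at 56 hpf all lay above the 3 at 48 hpf, and for 8 all lay below, where 13.2% and 11.1% of all genes did so. On the deposited scale the median of all genes was 0.11 and that of the members 0.52, and with TMM factors the members' median was 0.39.

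**Figure D1:**
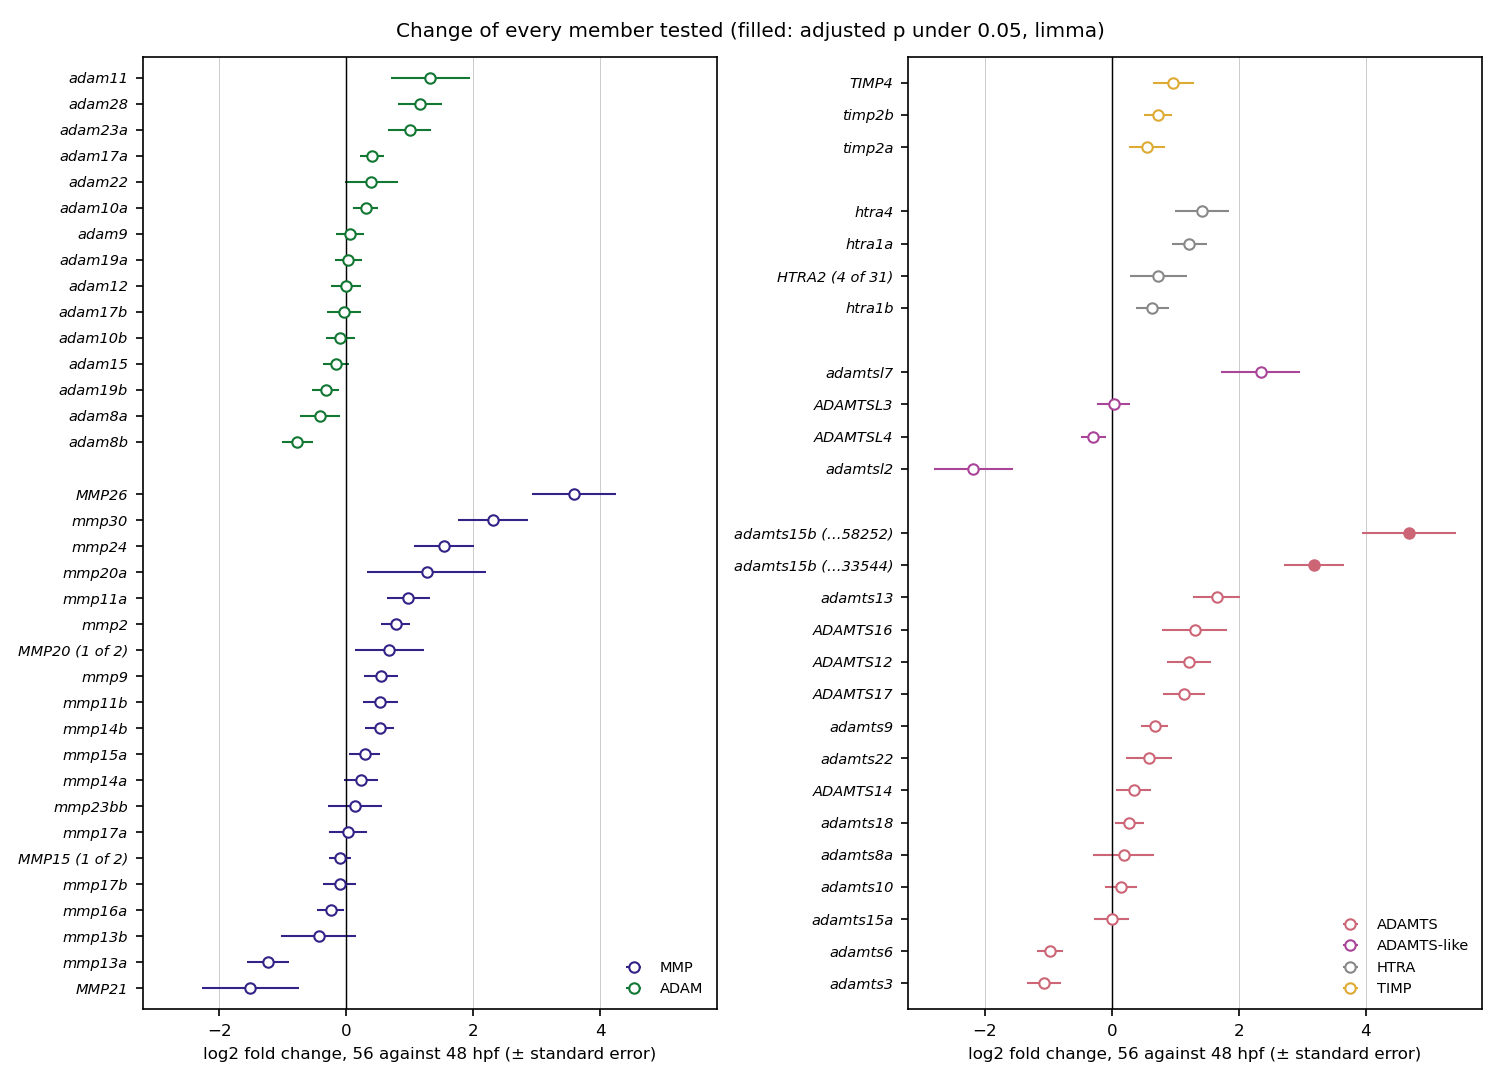
Log2 fold change of each of the 61 members tested, 56 against 48 hpf, with its standard error, by subfamily. Filled points mark an adjusted p under 0.05 by limma, which the 2 genes named *adamts15b* reached at 3.19 and 4.68; most other points lie within 2 log2 units of 0.

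The number of members called depended on the pools and the tool. It was 14 without replicate 1 at both stages, 0 without replicate 2 and 6 without replicate 3, and the share of all genes called moved with it, at 11.4%, 0.0769% and 3.15%. Without the replicate block and with all pools it was 6, where 2.69% of all genes were called. Beside both *adamts15b* genes these were *MMP26* (adjusted p = 0.0295), *adamts6* (0.0395), *htra1a* (0.0444) and *mmp30* (0.0488). With no block and a single pool left out, it was 9, 1 and 4 without replicates 1, 2 and 3 at 48 hpf, where 5.46%, 0.538% and 2.28% of all genes were called. It was 6, 0 and 0 without replicates 1, 2 and 3 at 56 hpf, where the shares were 3.7%, 0.269% and 0.471%. With the recovered reads, the likelihood ratio test of edgeR called 11 members higher and 4 lower, where 5.79% and 2.58% of all genes were called. DESeq2 called 9 higher and 4 lower, where 5.27% and 1.95% of all genes were. edgeR's quasi-likelihood test called 1 higher and 0 lower, where 0.601% and 0.149% of all genes were.

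The ADAMTS genes held both members that passed the test. At an unadjusted p under 0.05 by limma, 7 of them were higher and 2 lower, against 11.2% and 7.31% of all genes. The likelihood ratio test and DESeq2 each called 4 higher and 2 lower, against 5.79% and 2.58%, and 5.27% and 1.95%, of all genes. The quasi-likelihood test called 1 higher and 0 lower, against 0.601% and 0.149%. *adamts15b* (ENSDARG00000033544), whose mammalian relative ADAMTS15 cuts versican and aggrecan, had 10.6, 12.1 and 7.61 normalized counts at 48 hpf against 59.7, 175 and 91.8 at 56 hpf. Each 56 hpf pool lay more than 4-fold above each 48 hpf pool in level, and replicate 2 was the highest at 56 hpf. The means were 10.1 ± 2.28 (SD, n = 3 pools) for 48 hpf and 109 ± 59.5 (SD, n = 3 pools) for 56 hpf, and the gene rose by a log2 fold change of 3.19 ± 0.47 (SE, adjusted p = 0.0388). The second entry of that symbol, ENSDARG00000058252, is listed in the table of gene names as ADAMTS8, another proteoglycan-cutting member, and the first as ADAMTS15, so the identity of the second is uncertain. It had 2, 0 and 5 reads at 48 hpf against 76, 87 and 78 at 56 hpf. It was near the floor in the 48 hpf pools, with 0 reads in replicate 2, and its 56 hpf pools were close to each other, at 76.9, 86.0 and 65.1 normalized counts. Read almost wholly at 56 hpf, it passed the filter on low counts through that stage, so its call describes this gene and not the subfamily. The log2 fold change was 4.68 ± 0.74 (SE, adjusted p = 0.0473), a size that depends on the pseudocount. With a pseudocount of 0.5 the adjusted p by limma was 0.0642.

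These calls rested on a few pools, and that of ENSDARG00000058252 also on the pseudocount. For ENSDARG00000033544 the adjusted p by limma was 0.422 without replicate 2 at both stages, and without the block it was 0.0569 without replicate 2 at 48 hpf, 0.0972 without replicate 2 at 56 hpf and 0.0856 without replicate 3 at 56 hpf. For ENSDARG00000058252 it was 0.315 without replicate 2 at both stages, and without the block 0.110 without replicate 2 and 0.0864 without replicate 3 at 56 hpf. By edgeR's quasi-likelihood test the adjusted p was 0.0400 for the first and 0.0773 for the second. Over the alternatives run it ranged from 6.96e-08 to 0.422 and from 7.26e-07 to 0.315, and the log2 fold change stayed above 2 for each.

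*adamts6* and *adamts3* had the largest negative log2 fold changes of the ADAMTS genes, and neither passed the adjusted test. *adamts6*, which is needed for heart development in mice, had 503, 589 and 629 normalized counts at 48 hpf against 278, 299 and 295 at 56 hpf. Each 56 hpf pool lay far below each 48 hpf pool, and the pools of a stage were close together, with a log2 fold change of -0.97 ± 0.20 (SE, adjusted p = 0.0804). By the likelihood ratio test the adjusted p was 0.00732, and over the alternatives it ranged from 0.00732 to 0.622. *adamts3*, whose mammalian relative trims the amino-terminal propeptide of collagens and takes part in the activation of VEGF-C, had 178, 235 and 294 normalized counts at 48 hpf against 87.0, 138 and 109 at 56 hpf. The stages did not overlap, with a log2 fold change of -1.07 ± 0.27 (SE, adjusted p = 0.109), and by the likelihood ratio test the adjusted p was 0.0174.

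Among the other ADAMTS genes, *ADAMTS12* had 529.7, 326 and 316 normalized counts at 48 hpf against 585, 1057 and 1106 at 56 hpf. Its lowest 56 hpf pool, replicate 1, lay just above the highest 48 hpf pool, also replicate 1, and the log2 fold change was 1.21 ± 0.35 (SE, adjusted p = 0.138). By the likelihood ratio test its adjusted p was 0.0310. *adamts9*, whose mouse relative cuts versican in the heart valves, had 573, 935 and 1338 normalized counts at 48 hpf against 1047, 1774 and 1583 at 56 hpf. Each same-numbered pair was higher at 56 hpf, but the stages overlapped because replicate 3 at 48 hpf exceeded replicate 1 at 56 hpf, and the log2 fold change was 0.68 ± 0.21 (SE, adjusted p = 0.165). *adamts15a*, the paralog of *adamts15b*, had 2105, 1878 and 3869.7 normalized counts at 48 hpf against 2127, 2928 and 2439 at 56 hpf. Its stages overlapped and its log2 fold change was -0.00366 ± 0.272 (SE), with a sign that turned in 5 alternatives, among them the deposited scale (0.12), without replicate 3 at both stages (0.32) and, with no block, without replicate 3 at 48 hpf (0.31). Outside the rule for naming, and chosen after their values were seen, *adamts13* and *ADAMTS17* had stages without overlap. *adamts13*, whose mammalian relative cuts von Willebrand factor, had 319, 134 and 100.2 normalized counts at 48 hpf against 494, 472 and 579 at 56 hpf, a log2 fold change of 1.65 ± 0.37 (SE, adjusted p = 0.0863) with an adjusted p of 0.00295 by the likelihood ratio test. *ADAMTS17* had 45.1, 70.4 and 81.2 at 48 hpf against 151, 125 and 149 at 56 hpf, a log2 fold change of 1.13 ± 0.33 (SE, adjusted p = 0.144). Of the 15 ADAMTS genes, all of which were tested, 12 had a log2 fold change above 0 and 3 below, with a median of 0.59, and the remaining genes lay between 0.15 (*adamts10*) and 1.3 (*ADAMTS16*). Summed normalized counts of the cartilage markers, among which aggrecan is an ADAMTS substrate, were 5686 to 14387 at 48 hpf and 14769 to 19796 at 56 hpf. Those of the skeletal muscle markers were 15003 to 32532 at 48 hpf and 32365 to 44515 at 56 hpf, and those of the epidermis markers 180590.0 to 446961 at 48 hpf and 468734 to 774477 at 56 hpf. The cartilage and epidermis sums were higher in every 56 hpf pool and the muscle sums overlapped slightly. Between the nearest pools of the 2 stages the gap was small for cartilage (14387 against 14769) and for epidermis (446961 against 468734). At 48 hpf the cartilage sums came mostly from *col11a1a*, *col2a1b* and *sox9a*, with log2 fold changes of 1.04, 0.46 and -0.34. The epidermis sums came mostly from *krt4* (1.08), and none of these genes was called by limma. At 48 hpf the muscle sums came mostly from *acta1b*, *ckma* and *acta1a*, with log2 fold changes of -0.29, 0.000629 and 0.10. The 14 muscle genes called higher were others, and the stages of each did not overlap. Of all genes, 13.2% were higher at 56 hpf without overlap. No marker of these lists was at 0 in all pools, and their part in the ADAMTS values was not tested.

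The ADAMTS-like genes showed no common direction. Of the 4 tested, 1 was higher and 1 lower at an unadjusted p under 0.05 by limma, against 11.2% and 7.31% of all genes. The likelihood ratio test and DESeq2 each called 1 higher and 1 lower, against 5.79% and 2.58%, and 5.27% and 1.95%, of all genes. The adjusted test by limma and the quasi-likelihood test called none. *ADAMTSL4*, whose mammalian relative binds fibrillin microfibrils, had 2088, 2678 and 2770.1 normalized counts at 48 hpf against 2070.3, 1995 and 2051 at 56 hpf. All 56 hpf pools lay below the 48 hpf pools, but the gap to replicate 1 at 48 hpf was small, and the log2 fold change was -0.29 ± 0.19 (SE, adjusted p = 0.463). *ADAMTSL3* had 665, 1060.4 and 1545 normalized counts at 48 hpf against 1061, 1029.9 and 1056 at 56 hpf. Its 56 hpf pools were nearly equal and its 48 hpf pools were spread around them, so that the log2 fold change of 0.03 ± 0.26 (SE) turned to -0.29 without replicate 1 at both stages and to -0.29 with neither replicate 1 at 48 hpf nor the block. *adamtsl7* had low counts, 26.5, 7.82 and 1.27 at 48 hpf against 61.7, 44.5 and 24.2 at 56 hpf, a log2 fold change of 2.34 ± 0.61 (SE, adjusted p = 0.12) with an adjusted p of 0.0134 by the likelihood ratio test, and the pools overlapped because replicate 1 at 48 hpf exceeded replicate 3 at 56 hpf. *adamtsl2*, whose mammalian relative also binds fibrillin and which was chosen after its values were seen, had 35, 66 and 7 reads at 48 hpf against 6, 7 and 4 at 56 hpf. As normalized counts these were 46.5, 46.9 and 8.88 at 48 hpf against 6.07, 6.92 and 3.34 at 56 hpf, so that the 56 hpf pools lay lower, but replicate 3 at 48 hpf was far closer to them than to the other two 48 hpf pools. The log2 fold change was -2.18 ± 0.62 (SE, adjusted p = 0.137), with an adjusted p of 0.00516 by the likelihood ratio test.

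**Figure D2:**
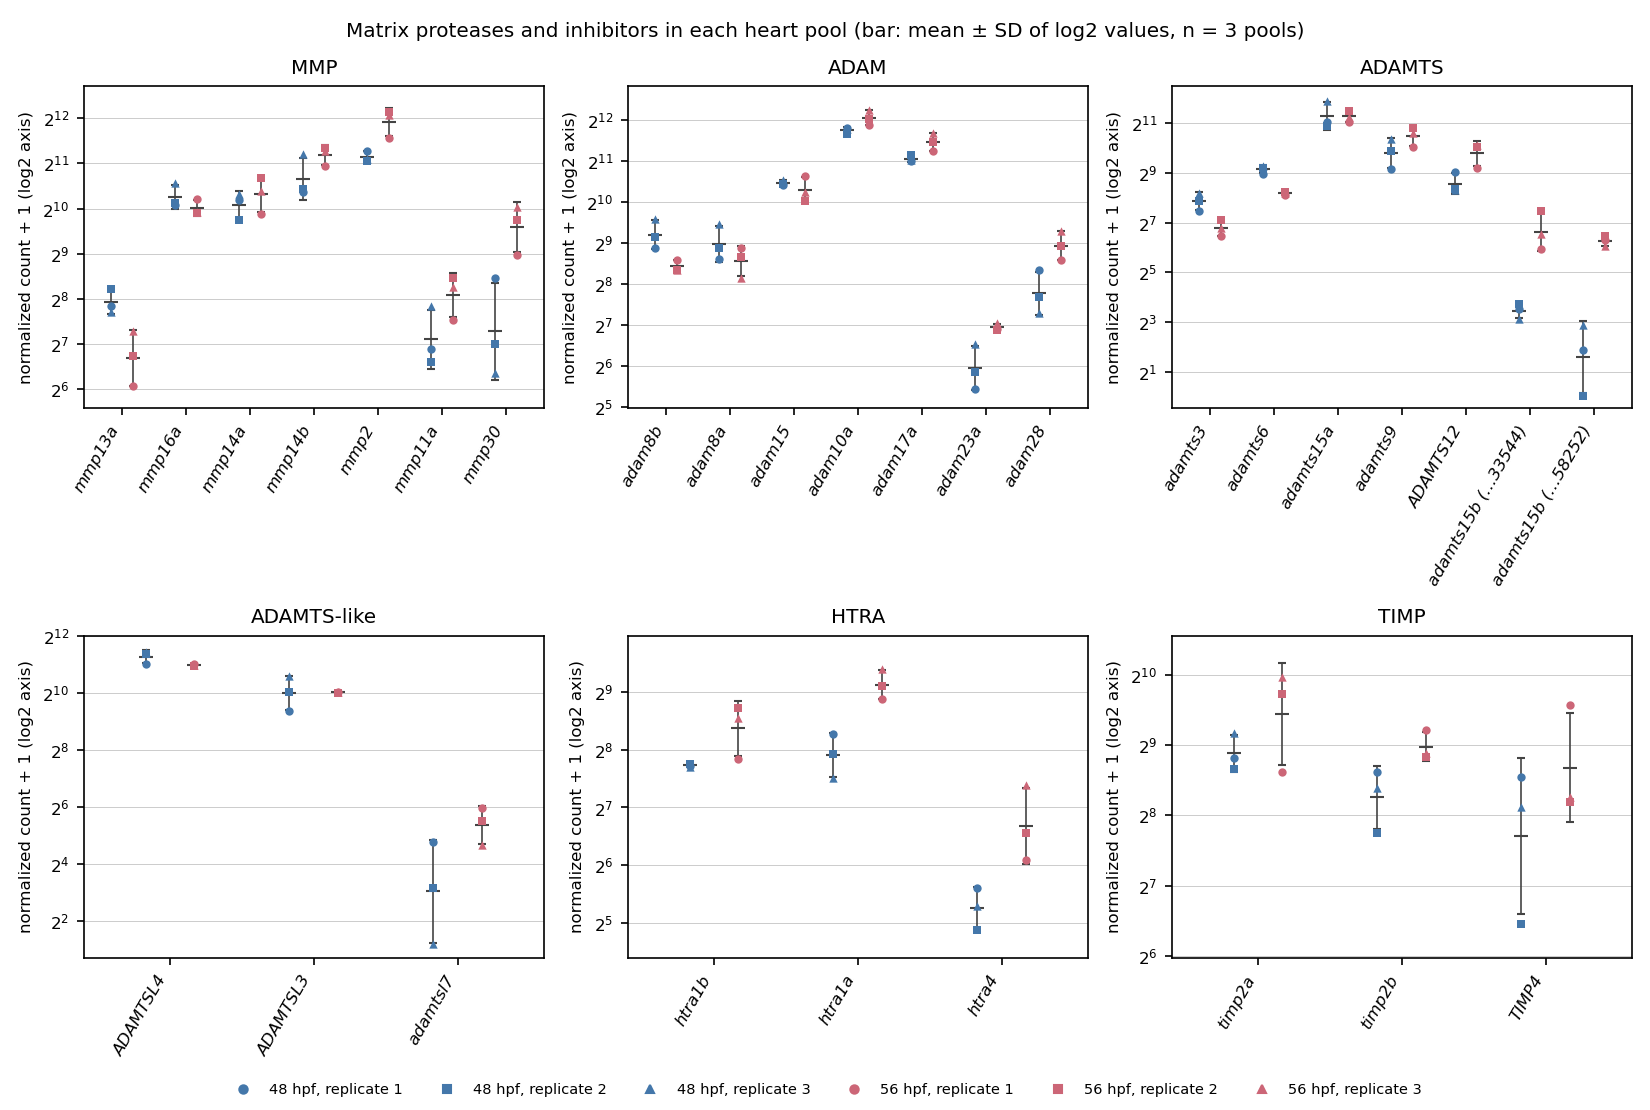
Normalized count + 1 on a log2 axis for the 30 members chosen by the naming rule, in each of the 6 pools, with symbols for the replicate numbers and bars for the mean ± SD of the log2 values (n = 3 pools a stage). The stages stand well apart for the 2 genes named *adamts15b* and for *adamts6*, and lie over each other for *adamts15a* and *ADAMTSL3*.

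Of the 23 MMP genes, 20 were tested, 14 of them with a log2 fold change above 0, and none passed the adjusted test. By limma 5 were higher and 1 lower at an unadjusted p under 0.05, and at an adjusted p under 0.05 the likelihood ratio test called 3 higher and 1 lower, DESeq2 2 and 1, and the quasi-likelihood test 0 and 0. The shares of all genes, given here for each subfamily, were 11.2% higher and 7.31% lower at an unadjusted p under 0.05, 5.79% and 2.58% by the likelihood ratio test, 5.27% and 1.95% by DESeq2 and 0.601% and 0.149% by the quasi-likelihood test. *mmp2*, the gene of gelatinase A, had 2493, 2117 and 2193 normalized counts at 48 hpf against 3027, 4479 and 4285 at 56 hpf. All 56 hpf pools lay above all 48 hpf pools, and the means were 2268 ± 199 (SD, n = 3 pools) for 48 hpf and 3931 ± 788 (SD, n = 3 pools) for 56 hpf. The log2 fold change was 0.78 ± 0.23 (SE, adjusted p = 0.144), and over the alternatives the adjusted p ranged from 0.0160 to 0.836. *mmp14a* and *mmp14b* are paralogs of the membrane-type enzyme that, with TIMP2, activates pro-MMP2 in mammals. *mmp14b* had 1313, 1375 and 2348 normalized counts at 48 hpf against 1968, 2599.5 and 2461 at 56 hpf. Each same-numbered pair was higher at 56 hpf, but replicate 3 at 48 hpf lay above replicate 1 at 56 hpf, and the log2 fold change was 0.52 ± 0.22 (SE, adjusted p = 0.274). *mmp14a* had 1166, 859.8 and 1287 at 48 hpf against 946, 1643 and 1341 at 56 hpf and a log2 fold change of 0.23 ± 0.27 (SE), with overlapping stages and a sign that turned without replicate 2 at both stages (-0.12).

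*mmp30* had the largest difference among the MMP genes with at least 50 reads in each pool of the higher stage. It had 353, 128 and 81.2 normalized counts at 48 hpf against 505, 861 and 1055 at 56 hpf, and replicate 1 at 48 hpf stood above the other 48 hpf pools. The stages did not overlap, the log2 fold change was 2.31 ± 0.55 (SE, adjusted p = 0.0992), and the adjusted p was 0.00413 by the likelihood ratio test and ranged from 3.88e-05 to 0.582 over the alternatives. *mmp11a*, a paralog of the stromelysin 3 gene, had 117, 96.0 and 227 normalized counts at 48 hpf against 183, 349.9 and 307 at 56 hpf. Replicate 3 was the highest at 48 hpf and lay above replicate 1 at 56 hpf, and the log2 fold change was 0.98 ± 0.34 (SE, adjusted p = 0.196). *mmp16a*, of the membrane type, had 1079, 1118 and 1518 at 48 hpf against 1179.8, 959.8 and 967 at 56 hpf, with overlapping stages and a log2 fold change of -0.25 ± 0.21 (SE, adjusted p = 0.579). The 10 membrane-type genes (*mmp14* to *mmp17*, *mmp24* and *mmp25* by symbol), of which 8 were tested, had a median log2 fold change of 0.13, against 0.41 over all MMP genes tested. Chosen after their values were seen, *MMP26* and *mmp24* had low counts. *MMP26* had 3, 1 and 5 reads at 48 hpf against 48, 49 and 52 at 56 hpf. It was close to the floor at 48 hpf and stood at 48.6, 48.4 and 43.4 normalized counts at 56 hpf, with a log2 fold change of 3.59 ± 0.66 (SE, adjusted p = 0.0675) and an adjusted p of 3.36e-05 by the likelihood ratio test. *mmp24* had 6, 24 and 10 reads at 48 hpf against 27, 49 and 45 at 56 hpf, a log2 fold change of 1.54 ± 0.47 (SE, adjusted p = 0.160), with 0.0396 by the likelihood ratio test. The other MMP genes tested lay between -1.51 (*MMP21*) and 1.27 (*mmp20a*), and of these only *MMP15 (1 of 2)* had stages without overlap, lower at 56 hpf with a log2 fold change of -0.10. *MMP25 (2 of 2)* had no read in any pool, and *mmp16b* and *MMP19* were not tested, with at most 14 and 9 reads in a pool.

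*mmp13a* and the *adam8* paralogs belong to enzymes known from white blood cells. *mmp13a* and *adam8b* were lower in every 56 hpf pool than in any 48 hpf pool, while the *adam8a* stages overlapped. None of these genes passed the adjusted test by limma. *mmp13a*, a collagenase gene, had 228, 298 and 209 normalized counts at 48 hpf against 65.8, 106 and 156 at 56 hpf. No 56 hpf pool reached the lowest 48 hpf pool, and the log2 fold change was -1.23 ± 0.33 (SE, adjusted p = 0.128). By the likelihood ratio test the adjusted p was 0.0233, and it ranged from 0.0233 to 0.717 over the alternatives. *adam8b* had 471, 563 and 761 normalized counts at 48 hpf against 385, 324 and 322 at 56 hpf. The stages did not overlap, and the log2 fold change was -0.77 ± 0.24 (SE, adjusted p = 0.166). *adam8a* had 386, 465 and 698 normalized counts at 48 hpf against 467, 400.3 and 282 at 56 hpf. Its stages overlapped, its log2 fold change was -0.41 ± 0.32 (SE), and without replicate 3 at both stages this was 0.02. *mmp9*, the gelatinase B gene, which neutrophils and macrophages also express and which was chosen after its values were seen, had 71.7, 164 and 95.1 at 48 hpf against 103, 214 and 159 at 56 hpf. In each same-numbered pair the 56 hpf pool was the higher, and the log2 fold change was 0.55 ± 0.27 (SE, adjusted p = 0.337).

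Of 13 macrophage and neutrophil markers, 3 were called lower at 56 hpf (*lyz*, *mpx* and *cpa5*) and none higher, with a median log2 fold change of -0.60. The likelihood ratio test and DESeq2 each called 4 lower and 1 higher, and the quasi-likelihood test 2 lower and 0 higher. Of all genes, these tests called 2.58%, 1.95% and 0.149% lower and 5.79%, 5.27% and 0.601% higher. By limma, 0.211% of all genes were called lower and 0.87% higher. The stages did not overlap for 7 lower and 2 higher markers, against 11.1% and 13.2% of all genes. Their summed normalized counts ranged from 9411 to 16798 at 48 hpf and 4109 to 5576 at 56 hpf, and *lyz*, the lysozyme gene of neutrophils, had 5465, 10714 and 11264 at 48 hpf against 1718, 2776 and 1884 at 56 hpf. *cpa5* is known from mast cells. Of the other markers, the macrophage genes *mpeg1*, *csf1ra*, *marco* and *mfap4* had log2 fold changes of 0.38, 0.70, 0.11 and -0.60, and the leukocyte genes *coro1a*, *lcp1*, *ptprc*, *spi1b* and *spi1a* -1.07, -0.68, -0.63, -0.60 and 0.03. The remaining marker had the highest log2 fold change of the list, 1.47. No marker of the list was at 0 in all pools. The part of these markers in the values of *mmp13a*, *adam8a* and *adam8b* was not tested.

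**Figure D3:**
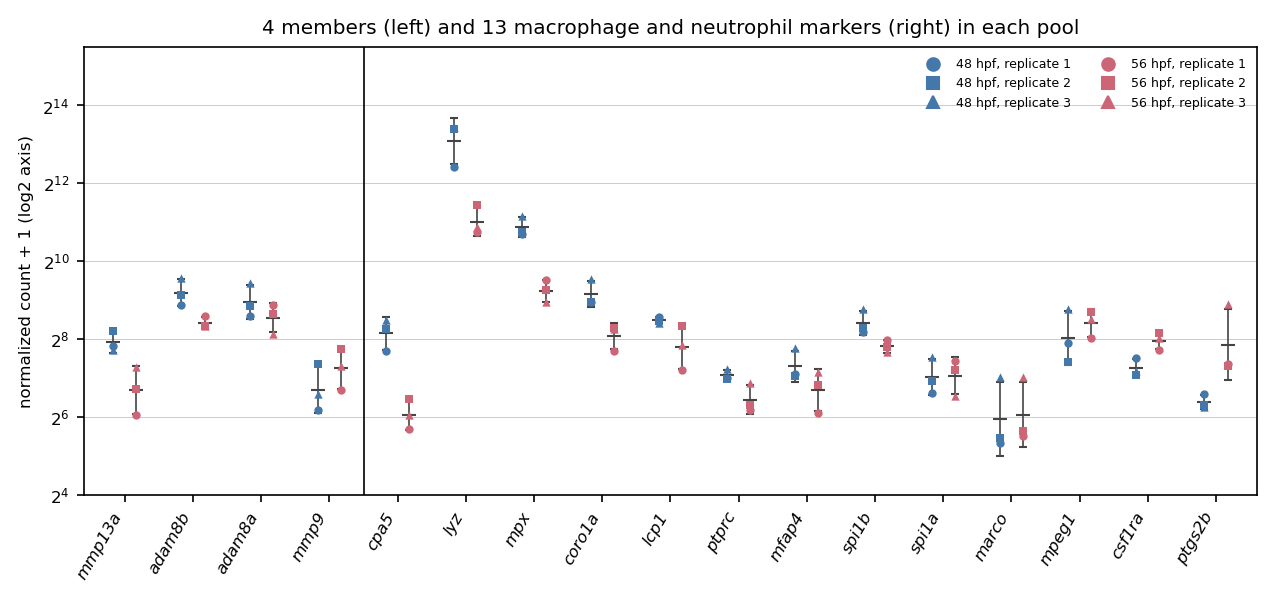
Normalized count + 1 on a log2 axis for *mmp13a*, *adam8b*, *adam8a* and *mmp9* and for 13 macrophage and neutrophil markers in each pool, with bars for the mean ± SD of the log2 values (n = 3 pools a stage). *cpa5*, *lyz* and *mpx* are lower in all 56 hpf pools, as are *mmp13a* and *adam8b*, and the *adam8a* and *mmp9* stages overlap. Of the 13 markers, 8 have a log2 fold change below 0 and 5 above 0.

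The ADAM genes as a group had log2 fold changes around 0, with a median of 0.03 over 15 tested of 16, 8 above and 7 below 0. None was called by limma or by the quasi-likelihood test, 2 were higher and 1 lower at an unadjusted p under 0.05 by limma, and the likelihood ratio test and DESeq2 each called 1 higher and 0 lower, where 11.2% and 7.31%, 5.79% and 2.58%, and 5.27% and 1.95% of all genes were higher and lower in that order of tests. *adam10a* and *adam17a* belong to the sheddases that release Notch receptors and EGF-family ligands. *adam10a* had 3567, 3239 and 3529 normalized counts at 48 hpf against 3785, 4178 and 4846 at 56 hpf. Every 56 hpf pool was above every 48 hpf pool, but the difference was small, with a log2 fold change of 0.30 ± 0.20 (SE, adjusted p = 0.451). *adam17a* had 2029.7, 2251 and 2081 normalized counts at 48 hpf against 2403, 2825 and 3259 at 56 hpf, also without overlap, and a log2 fold change of 0.41 ± 0.19 (SE, adjusted p = 0.316). Their paralogs *adam10b* and *adam17b* had log2 fold changes of -0.09 ± 0.23 (SE) and -0.04 ± 0.27 (SE), with overlapping stages. *adam28* had 323, 202 and 155 normalized counts at 48 hpf against 381, 481 and 626 at 56 hpf. The lowest 56 hpf pool, replicate 1, exceeded the highest 48 hpf pool, also replicate 1, and the log2 fold change was 1.17 ± 0.35 (SE, adjusted p = 0.149), with an adjusted p of 0.0445 by the likelihood ratio test and a range from 0.0145 to 0.697. *adam23a*, whose mammalian relative lacks protease activity and acts in adhesion of nerve cells, had 42.5, 56.9 and 91.3 normalized counts at 48 hpf against 118, 117 and 130.3 at 56 hpf. The 56 hpf pools lay close together above the 48 hpf pools, with a log2 fold change of 1.00 ± 0.33 (SE, adjusted p = 0.189). The neural marker list had a median log2 fold change of 0.60, with none of 10 genes called (3 higher at an unadjusted p under 0.05, 1 by the likelihood ratio test and 1 by DESeq2), and summed normalized counts of 1701 to 2705 at 48 hpf and 2392 to 3860.1 at 56 hpf, and its part in this value was not tested. *adam15* had 1353, 1390.4 and 1480.2 at 48 hpf against 1589, 1033 and 1212 at 56 hpf and a log2 fold change of -0.16 ± 0.21 (SE). *adam19b*, whose mouse relative is needed in the endocardial cushions and which was chosen after its values were seen, had 769, 811 and 780.0 at 48 hpf against 751, 498 and 659 at 56 hpf, without overlap, and a log2 fold change of -0.33 ± 0.21 (SE, adjusted p = 0.451). The other ADAM genes tested lay between -0.01 (*adam12*) and 1.32 (*adam11*), all with overlapping stages, and *ADAM23 (2 of 2)* was not tested, with at most 5 reads in a pool.

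Of the 28 HTRA genes, 23 were entries named *HTRA2*, and 18 of these had 3 reads or fewer in every pool. Per the study's methods, reads aligned at more than 1 place were left out, so those that fit several near-identical copies are not in these counts and the levels of the copies are uncertain. The single *HTRA2* entry that was tested, *HTRA2 (4 of 31)*, had 22, 34 and 13 reads at 48 hpf against 53, 29 and 44 at 56 hpf and a log2 fold change of 0.73 ± 0.45 (SE). None of the 4 HTRA genes tested passed the adjusted test by limma or the quasi-likelihood test, 3 were higher at an unadjusted p under 0.05 by limma, and the likelihood ratio test called 2 and DESeq2 1 of them higher, where 11.2%, 5.79% and 5.27% of all genes were higher. The mammalian HTRA2 protein is a mitochondrial protease, and HTRA1, HTRA3 and HTRA4 are secreted. *htra1a* had 308, 242 and 181 normalized counts at 48 hpf against 469.5, 552 and 669.7 at 56 hpf. All 56 hpf pools lay above all 48 hpf pools, and the means were 244 ± 63.3 (SD, n = 3 pools) for 48 hpf and 564 ± 101 (SD, n = 3 pools) for 56 hpf. The log2 fold change was 1.22 ± 0.28 (SE, adjusted p = 0.0944). By the likelihood ratio test the adjusted p was 0.00819, and it ranged from 0.00819 to 0.604 over the alternatives. *htra1b* had 209.7, 215 and 208 normalized counts at 48 hpf against 227, 423 and 372 at 56 hpf. Its 48 hpf pools were nearly equal and replicate 1 at 56 hpf lay just above them, with a log2 fold change of 0.64 ± 0.26 (SE, adjusted p = 0.256). *htra4* had 47.8, 28.4 and 38.1 normalized counts at 48 hpf against 66.8, 92.9 and 166 at 56 hpf, without overlap, and a log2 fold change of 1.42 ± 0.43 (SE, adjusted p = 0.155), with an adjusted p of 0.0397 by the likelihood ratio test. Each of these 3 genes kept a log2 fold change above 0 in every alternative run. As their stages did not overlap, leaving out pools could hardly have turned the sign. *HTRA3 (1 of 3)* and *htra3a* were not tested, with at most 15 reads and 1 read in a pool.

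All 3 TIMP genes had log2 fold changes above 0 in every alternative run, and none passed the adjusted test by limma, edgeR or DESeq2, while 2 were higher at an unadjusted p under 0.05 by limma, where 11.2% of all genes were. *timp2b* had 392, 215 and 336 normalized counts at 48 hpf against 594, 454 and 474 at 56 hpf. The stages did not overlap, so leaving out pools could hardly have turned the sign. The log2 fold change was 0.72 ± 0.22 (SE, adjusted p = 0.158). *timp2a* had 451, 405 and 577 normalized counts at 48 hpf against 393, 848 and 1005 at 56 hpf. Replicates 2 and 3 at 56 hpf stood above the 48 hpf pools, but replicate 1 at 56 hpf was the lowest of all 6 pools, and the log2 fold change was 0.55 ± 0.28 (SE, adjusted p = 0.345). Without replicate 1 at both stages the adjusted p was 0.0308, in a range of 0.0308 to 0.956. *TIMP4* had 374, 86.8 and 278 normalized counts at 48 hpf against 763, 292 and 307 at 56 hpf. Here replicate 1 was the highest pool at each stage and replicate 2 the lowest, so the stages overlapped while each same-numbered pair was higher at 56 hpf. The log2 fold change was 0.97 ± 0.33 (SE, adjusted p = 0.189). Without replicate 3 at both stages the adjusted p was 0.0311, in a range of 0.0311 to 0.855.

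Summed over the 3 TIMP genes, the normalized counts were 1217, 706 and 1191 at 48 hpf against 1749.5, 1593 and 1787 at 56 hpf. Every 56 hpf pool was above every 48 hpf pool. The sum over the HTRA genes was 609, 525 and 467 at 48 hpf against 842, 1123 and 1265 at 56 hpf, also without overlap. The MMP sum was 8708, 8075 and 10269.8 at 48 hpf against 9962, 13692 and 13033 at 56 hpf, with replicate 3 at 48 hpf above replicate 1 at 56 hpf. The ADAM sum was 11701 to 12809 at 48 hpf and 12921 to 14052 at 56 hpf, without overlap and with a difference that was small against its level, the ADAMTS sum was 4973 to 7545 at 48 hpf and 6176 to 8218 at 56 hpf and the ADAMTS-like sum 2826 to 4325 at 48 hpf and 3076 to 3199.5 at 56 hpf, both with overlap. Summed over all genes, the normalized counts were 19074800, 19161700 and 18945700 at 48 hpf against 19843100, 21853800 and 21231500 at 56 hpf. This sum did not overlap either, so a lack of overlap in a sum is not particular to these subfamilies. A sum follows its members with the most reads, and no test was made of it.

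**Figure D4:**
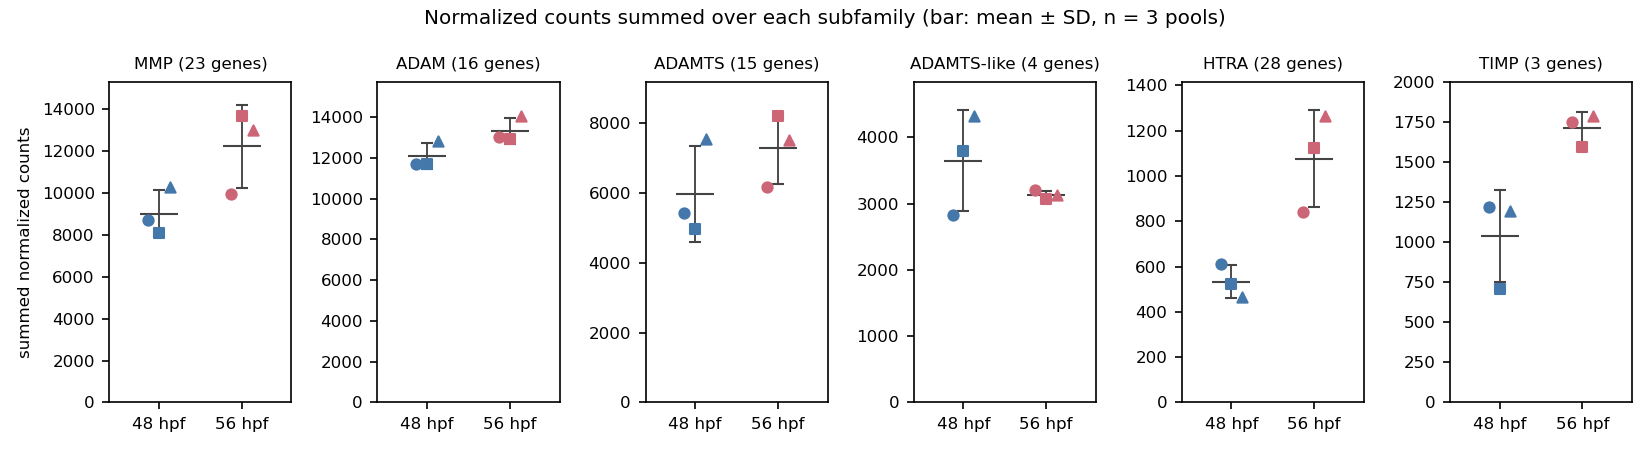
Normalized counts summed over all genes of each subfamily in each pool, on axes that start at 0, with circles, squares and triangles for replicates 1, 2 and 3 and bars for the mean ± SD (n = 3 pools a stage). The TIMP and HTRA sums do not overlap between the stages, and the ADAMTS and ADAMTS-like sums overlap. The sum over all genes, which is not drawn, does not overlap either.

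Other genes of matrix proteolysis were read from 7 lists. Of 18 proteoglycan and hyaluronan genes tested, 3 were called higher and none lower, against 0.87% and 0.211% of all genes. At an unadjusted p under 0.05 by limma, 4 were higher and 5 lower, against 11.2% and 7.31% of all genes. The likelihood ratio test called 4 higher and 2 lower, against 5.79% and 2.58% of all genes. DESeq2 called 4 higher and 1 lower, against 5.27% and 1.95%. The quasi-likelihood test called 1 higher and 0 lower, against 0.601% and 0.149%. The median log2 fold change was -0.22. The 3 called higher by limma were *acanb*, *acana* and *bgna*. *acanb*, an aggrecan gene, had 3, 11 and 0 reads at 48 hpf against 187, 190 and 99 at 56 hpf and rose by a log2 fold change of 5.35 ± 0.56 (SE, adjusted p = 0.0163). *acana*, its paralog and one of the cartilage markers, had 32, 58 and 98 reads at 48 hpf against 675, 1044 and 446 at 56 hpf and rose by 3.39 ± 0.55 (SE, adjusted p = 0.0498). *bgna*, a biglycan gene, had 1, 0 and 0 reads at 48 hpf against 26, 37 and 47 at 56 hpf and rose by 4.70 ± 0.76 (SE, adjusted p = 0.0490). For *acanb* and *bgna* the 48 hpf reads were few, so the size of the log2 fold change depends on the pseudocount. Read almost wholly at 56 hpf, both passed the filter on low counts through that stage. The number called therefore describes the genes tested and not the list. Aggrecan is cut by ADAMTS enzymes, and the values of the cartilage list are given above, their part not tested. The adjusted p over the alternatives ranged from 3.79e-15 to 0.116 for *acanb*, 1.49e-10 to 0.315 for *acana* and 2.74e-07 to 0.445 for *bgna*. Without replicate 2 at both stages it was 0.116 for *acanb*, 0.315 for *acana* and 0.445 for *bgna*. With no block and without replicate 2 at 56 hpf it was 0.0916, 0.0741 and 0.107 for the same genes. For *acana* and *bgna* it was also 0.0576 and 0.0542 without replicate 2 at 48 hpf, and for *bgna* 0.0984 without replicate 3 at 56 hpf. The quasi-likelihood test gave 0.0253, 0.0769 and 0.0697. With a pseudocount of 0.5 and all pools, the adjusted p by limma was 0.0533 for *acana* and 0.0633 for *bgna*. Where at least 10 reads in every pool were required, it was 0.0642 for *acana*.

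The versican genes, whose product fills the cardiac jelly, had log2 fold changes below 0. *vcanb* had 2784, 2839.8 and 1662 normalized counts at 48 hpf against 1411, 1253 and 954 at 56 hpf. All 56 hpf pools lay below all 48 hpf pools, and the log2 fold change was -0.99 ± 0.19 (SE, adjusted p = 0.0701), with a range of the adjusted p from 0.00342 to 0.631. *vcana* had 4296, 5852 and 6828 normalized counts at 48 hpf against 5242, 2039 and 1810.2 at 56 hpf. Replicate 1 at 56 hpf lay among the 48 hpf pools and the other two 56 hpf pools far below, with a log2 fold change of -1.05 ± 0.41 (SE, adjusted p = 0.244). Both were chosen after their values were seen.

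Of 9 membrane serine proteases and inhibitors tested, 1 was called higher and none lower, against 0.87% and 0.211% of all genes, with a median of 1.22. At an unadjusted p under 0.05 by limma, 5 were higher, against 11.2% of all genes. The likelihood ratio test called 3 higher, DESeq2 5 and the quasi-likelihood test 0, against 5.79%, 5.27% and 0.601%. None was lower at an unadjusted p under 0.05 or by edgeR or DESeq2 either. The gene called higher by limma was *tmprss4a*, a membrane serine protease gene. It had 163, 215 and 124 normalized counts at 48 hpf against 373, 811 and 767 at 56 hpf and rose by 1.90 ± 0.30 (SE, adjusted p = 0.0481). The adjusted p ranged from 6.80e-06 to 0.383, with 0.383 without replicate 2 at both stages and 0.0603 by the quasi-likelihood test. With no block it was 0.0691 and 0.0501 without replicates 2 and 3 at 48 hpf, and 0.138 and 0.140 without replicates 2 and 3 at 56 hpf. With the block and all pools, limma gave 0.0510 at a pseudocount of 0.5 and 0.0633 with at least 10 reads in every pool. The largest log2 fold change in the list was that of *fap*, the gene of fibroblast activation protein, with 146, 46.9 and 57.1 at 48 hpf against 223, 346 and 279.7 at 56 hpf and a log2 fold change of 1.91 ± 0.45 (SE, adjusted p = 0.0963). *spint2*, an inhibitor of such proteases chosen after its values were seen, had 1671, 1622 and 954 at 48 hpf against 2584, 4685 and 4785 at 56 hpf and a log2 fold change of 1.49 ± 0.32 (SE, adjusted p = 0.0836), with an adjusted p of 0.0418 without the block. Matriptase (*st14a*, *st14b*) and its inhibitors of the *spint1* and *spint2* kind are known from epithelia, and *fap* from fibroblasts. The epidermis markers, whose sums are given above, had a median of 1.09. Their part was not tested.

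The remaining 4 kinds of enzyme and the EGF-family list held no called gene. None of 6 plasminogen system genes (median -0.02), 7 proprotein convertases (0.19), 7 other metalloproteases and regulators (0.08), 15 cathepsins and cystatins (0.48) and 13 EGF-family ligands and receptors (0.17) passed the adjusted test by limma. At an unadjusted p under 0.05 by limma, 13 of these were higher and 3 lower, against 11.2% and 7.31% of all genes. At an adjusted p under 0.05 the quasi-likelihood test called none, where 0.601% of all genes were higher and 0.149% lower. The likelihood ratio test called 5 higher and 2 lower, against 5.79% and 2.58% of all genes. DESeq2 called 6 higher and 1 lower, against 5.27% and 1.95%. The largest log2 fold changes in each list, in the order above, were those of *serpinf2b*, at 1.89 ± 0.75 (SE), *pcsk2*, at 1.19 ± 0.45 (SE), *pcolce2b*, at 1.93 ± 0.38 (SE), *ctsba*, at 1.11 ± 0.34 (SE) and *erbb3b*, at 2.01 ± 0.39 (SE). With no replicate block the adjusted p by limma was 0.0444 for *pcolce2b* and 0.0315 for *erbb3b*. *serpinf2b*, an inhibitor of plasmin made in the liver, had 59.7, 22.0 and 8.88 at 48 hpf against 235, 18.8 and 151 at 56 hpf. It was high in replicate 1 at 48 hpf and in replicates 1 and 3 at 56 hpf, where the summed liver and yolk markers were high too (54491, 7826 and 27759 at 48 hpf against 126068, 5133 and 99049 at 56 hpf), and their part was not tested. *furina*, a convertase of the kind that activates membrane-type MMPs and ADAM proteases, had 3124, 3804 and 3941 normalized counts at 48 hpf against 4686, 5648 and 5658 at 56 hpf, without overlap, and a log2 fold change of 0.56 ± 0.19 (SE, adjusted p = 0.194). *hbegfa*, which encodes a ligand shed by ADAM17 in mammals, had 829.7, 1826 and 1374 normalized counts at 48 hpf against 447, 605 and 892 at 56 hpf. Replicate 1 at 48 hpf lay below replicate 3 at 56 hpf, and the log2 fold change was -1.04 ± 0.24 (SE, adjusted p = 0.0930). *furina* and *hbegfa* were chosen after their values were seen.

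**Figure D5:**
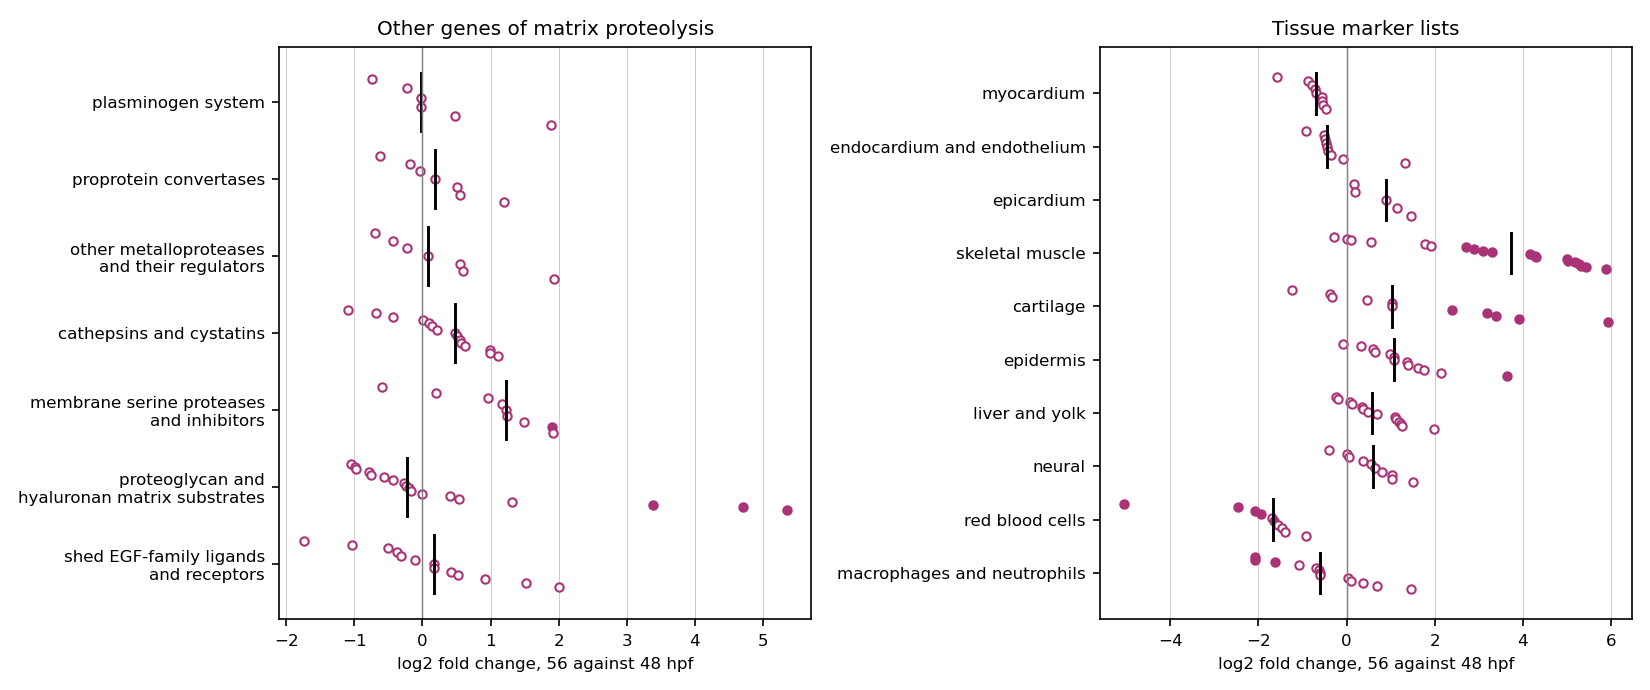
Log2 fold change, 56 against 48 hpf, of each gene tested in 7 lists of matrix proteolysis (left) and in 10 lists of tissue markers (right), with a black line at the median and filled points for an adjusted p under 0.05 by limma. In the left panel the filled points are *acanb*, *bgna*, *acana* and *tmprss4a*, and in the right panel the skeletal muscle list holds 14 filled points.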

How the data were processed

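The deposited tables give, for each gene and pool, a signal that the authors made when they divided read counts by the size factor of each library. Per the study's methods, reads were aligned to Zv9 with Tophat, uniquely aligned reads were kept and HTSeq counted them on Ensembl genes. The submitters' processing notes list Bowtie2, HTSeq and DESeq. Whether the counting used strand is not given in the sources used here. All values (100%) came out as whole reads when divided by the smallest value of their library above 0 (tolerance 0.01). The recovered reads were divided by size factors drawn from the 6 libraries (median of ratios), and genes were kept by filterByExpr (minimum count 10, minimum total 15), leaving 20805. limma 3.58.1 (R 4.3.3) was run on log2(value + 1) with a trend and the replicate number as a block, because the methods adjust for baseline differences between experiments. That the number marks an experiment is an inference, and a further code in the sample labels differs within every same-numbered pair. Fold changes are 56 against 48 hpf on that scale, which understates the change of low genes. edgeR 4.0.16 and DESeq2 1.42.0 on the recovered reads are alternatives.

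The methods give oligo-dT selection and the labels an amplification kit with random and poly-T primers. With the block, limma's p-values weigh a difference against the spread left after the replicate numbers are fitted, moderated by a trend over all genes. They cover these pools only, and not the full spread between the pools of a stage. With 3 pools against 3, an exact permutation test cannot give a p under 0.1, and a gene whose stages do not overlap reaches that value, so it is not repeated per gene. The members and lists were chosen with earlier results of these data known. Named members are those with an adjusted p under 0.05, in each subfamily the 3 with the highest mean normalized count and the 2 largest log2 fold changes in each direction where each pool of the higher stage held at least 50 reads, and every TIMP. Of the pathway lists, genes with an adjusted p under 0.05 and the gene with the largest change are named. Of 89 members, 71 had their identifier in the table of gene names. No sequence or coordinate was used here.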

Additional observations from a re-analysis of the deposited data

How the results depend on the processing

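Fixed alternatives were run for the number of members called (2 higher and 0 lower) and for 52 genes named. Without the replicate block limma called 6 members, 5 higher and 1 lower, where the share of all genes called was 2.69% against 1.08% with it. The block follows the study's methods. Same-numbered pools, however, did not all deviate together across genes (correlations 0.03, 0.19 and -0.05 for replicates 1, 2 and 3). The replicate 2 pools correlated best with each other, and no other pool correlated best with its own number. With 3 pools a stage these values cannot show whether the numbers mark shared experiments. The sample labels carry a further code, which differs within every same-numbered pair. The only code found at both stages is that of replicate 1 at 48 hpf and replicate 3 at 56 hpf (correlation 0.05). Those pools also correlated best with each other, as did replicate 3 at 48 hpf and replicate 1 at 56 hpf (0.09). What the code marks is not given in the sources used here, and a block by it was not tested. The count was 1 (higher) with a pseudocount of 0.5 and 3 with a pseudocount of 10, where 0.947% and 1.18% of all genes were called. It was 0 with at least 10 reads in every pool, which leaves both *adamts15b* genes out, and 0 at a threshold of 0.01. The shares of all genes called there were 0.8% and 0.13%. It was 1 (higher) by edgeR's quasi-likelihood test, 15 by its likelihood ratio test (11 higher, 4 lower) and 13 by DESeq2 (9 higher, 4 lower), where 0.75%, 8.37% and 7.21% of all genes were called; the cause was not tested. TMM factors, the deposited values and no filter left the count at 2, where 1.08%, 1.37% and 1.2% of all genes were called. With a replicate number left out at both stages it ranged from 0 to 14 (higher 0 to 12, lower 0 to 2), where 0.0769% to 11.4% of all genes were called, and with a single pool left out and no block from 0 to 9 (higher 0 to 8, lower 0 to 1), where 0.269% to 5.46% were. Of the 52 genes, 48 kept their direction in all alternatives run. Where the stages of a gene did not overlap, leaving out pools could hardly have turned it. The log2 fold change of *adamts15a* reversed with the deposited values (0.12) and, with pools left out, ranged from -0.32 to 0.32, with 0.0105, 0.108 and 0.31 among the single pools that turned it, that of *adam8a* from -0.76 to 0.0247, that of *ADAMTSL3* from -0.29 to 0.31 and that of *mmp14a* from -0.12 to 0.50. Genes near 3 reads at 48 hpf, among them *MMP26* and ENSDARG00000058252, are limited by depth.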
